A study of Mus musculus with 5 samples.

Results

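The granins are acidic proteins of dense-core secretory granules, the vesicles in which neurons and endocrine cells, pancreatic islet cells among them, keep peptide hormones until a stimulus releases them. Chromogranins and secretogranins aggregate in the trans-Golgi network and take hormone into budding granules, and several are themselves cut into bioactive peptides. REST, the RE1-silencing transcription factor, binds through zinc fingers to a bipartite DNA element, RE1, and as a repressor holds neuronal and neuroendocrine genes off in other cells. REST elements have long been known at several granin genes. The 6 genes described here, of 22367 protein-coding genes in the annotation, are Chga and Chgb (chromogranins A and B), Scg2, Scg3 and Scg5 (secretogranins II, III and V) and Vgf (the VGF nerve growth factor inducible precursor). All called REST peaks inside a gene body or within 50 kb of the gene start were assigned to it, which gave 28 of 3917 peaks. Peaks of different libraries that overlapped were joined, and these 28 made up 8 of the 1860 sites of the series.

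REST binding was measured by ChIP-seq in whole pancreas of untreated wild-type mouse embryos on a mixed strain background that included C57BL/6, with the mouse monoclonal antibody 12C11 against REST. There were 3 libraries at E18.5 (A, B and C, each from 3 to 4 pooled pancreases) and 2 libraries at E13.5 (A and B, each from 4 to 6 pooled pancreases). The comparison asks which granin genes REST occupied at a stage rich in progenitors and whether the same positions were still called shortly before birth. Called peaks measure binding and not expression, so the tissue label could not be checked against marker genes.

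The deposited lists held 541, 417 and 226 peaks for E18.5 A, B and C, and 1400 and 1333 peaks for E13.5 A and B. Median peak length was 311, 319 and 394.5 bp in E18.5 A, B and C, against 161 and 483 bp in E13.5 A and B, so E13.5 A stood apart with short peaks and E18.5 C with a short list. Read depth is unknown. A missing peak means no call and cannot be read as lack of binding, and in whole pancreas fewer REST-bound cells and less binding per cell cannot be told apart. Each peak has a score of unstated unit, and it was used only to rank peaks inside a library, as a percentile in which 100 is the highest. Scores are whole numbers, and peaks with the same score share the percentile of their mean rank. Percentiles therefore move in coarse steps at low scores. In E18.5 B, score 5 stood at percentile 29.5 and score 6 at 53.4. A place from the top counts only the peaks with a higher score before it.

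An element was found at every granin site, by a rule that left only 13.6% of the 1183 sites of both E13.5 libraries without one. The elements are shown here because 2 of the 8 differ from the others in the spacing of their parts. An RE1 has a left core CAGCACC and a right core GGACAGC, usually 2 bases apart. A matrix of 21 positions trained on E13.5 sites of chromosomes without a granin gene gave this consensus, with the cores in capitals:
RE1 consensus: ttCAGCACCatGGACAGCgcc
The elements under the granin peaks are written 5′ to 3′ on their own strand from the mm9 genome, with core bases in capitals where they equal CAGCACC or GGACAGC:
Chga start (chr12:103793448-103793468, + strand): ttCAGCACCtcGGACAGCacc
Chga upstream (chr12:103788904-103788924, + strand): ttCAGgACCacGGACAGCgac
Chgb start (chr2:132607530-132607550, + strand): ttCAGCACCccGGACAGCtcc
Vgf start (chr5:137506144-137506164, - strand): ttCAGCACgctGGACAGCgcc
Vgf downstream (chr5:137507058-137507078, + strand): ctCAGgACCagGGAgAGCtct
Vgf upstream distal (chr5:137460893-137460913, - strand): ccCAGgACCctGGACAGCggc
Scg2 start (chr1:79436600-79436618, + strand): ttCAGCACCGGACAGCtcc
Scg3 start (chr9:75531750-75531776, - strand): ttCAGCACCcgcggggcGGACAGCgcc
The first 6 have the canonical spacer of 2 bases. The Scg2 element has no spacer at all and the Scg3 element has 8 bases between its cores, yet in both the cores themselves are exact. Both cores were exact in 4 of the 8 elements, and the right core was exact in 7, those 4 included. These counts of exact cores were not set against all sites. The elements lay on the strand of their gene in 5 cases and on the other strand in 3, and 6 were within 1 kb of the gene start.

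REST peaks were called at 5 of the 6 granin genes, and each of these 5 had a site centred within 1 kb of its start in both E13.5 libraries and in at least 2 of the 3 E18.5 libraries. Counting peaks by the full rule, granin genes with a site in at least 2 E18.5 libraries numbered 5 of 6, against 2.2% of all protein-coding genes, and those with a site in both E13.5 libraries 5 of 6, against 6.9% of all. For sites centred within 1 kb of the start the background was 0.376% of genes at E18.5 and 0.845% at E13.5. Scg5 was the gene without a peak. Leaving out E18.5 A lowered the E18.5 count to 2 genes, and leaving out E18.5 B lowered it to 3, because both remaining libraries then had to hold the site. These counts describe a chosen list of 6 and were not tested.

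In E18.5 A, B and C, 5, 4 and 3 granin genes had a peak, where 3.27%, 3.05% and 1.97% of all protein-coding genes had one. In E13.5 A and B the number was 5 and 5, with 7.84% and 7.57% of all genes. The mean was 4 ± 1 genes at E18.5 (SD, n = 3) and 5 ± 0 genes at E13.5 (n = 2), a difference that an exact two-sided permutation test over libraries did not separate from the spread (E18.5 minus E13.5, -1, p = 0.6). The groups overlapped, since E18.5 A had the same 5 genes as the E13.5 libraries. With 3 libraries against 2 the smallest p this test can give is 0.2.

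Granin peaks numbered 5, 5 and 3 in E18.5 A, B and C, against 7 and 8 in E13.5 A and B. The groups did not overlap (4.33 ± 1.15 and 7.5 ± 0.707 peaks, difference -3.17, exact two-sided permutation p = 0.2, the smallest possible). Whole lists were shorter at E18.5 in the same libraries (394.7 ± 158.7 peaks, against 1366.5 ± 47.4 at E13.5), and with every list limited to its 226 top-scoring peaks the difference in granin peaks was -0.67 (exact permutation p = 0.6). As a share of its own list, granin peaks made up 0.924% (95% exact binomial interval 0.301 to 2.14) of E18.5 A, 1.2% (0.390 to 2.78) of E18.5 B and 1.33% (0.275 to 3.83) of E18.5 C. The share was 0.5% (0.201 to 1.03) in E13.5 A and 0.6% (0.259 to 1.18) in E13.5 B. Every E18.5 share was thus above both E13.5 shares, the opposite order to that of the peak counts. The difference in share was not tested over libraries. These intervals cover counting error only, with peaks taken as independent, and all 5 overlap.

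**Figure D1:**
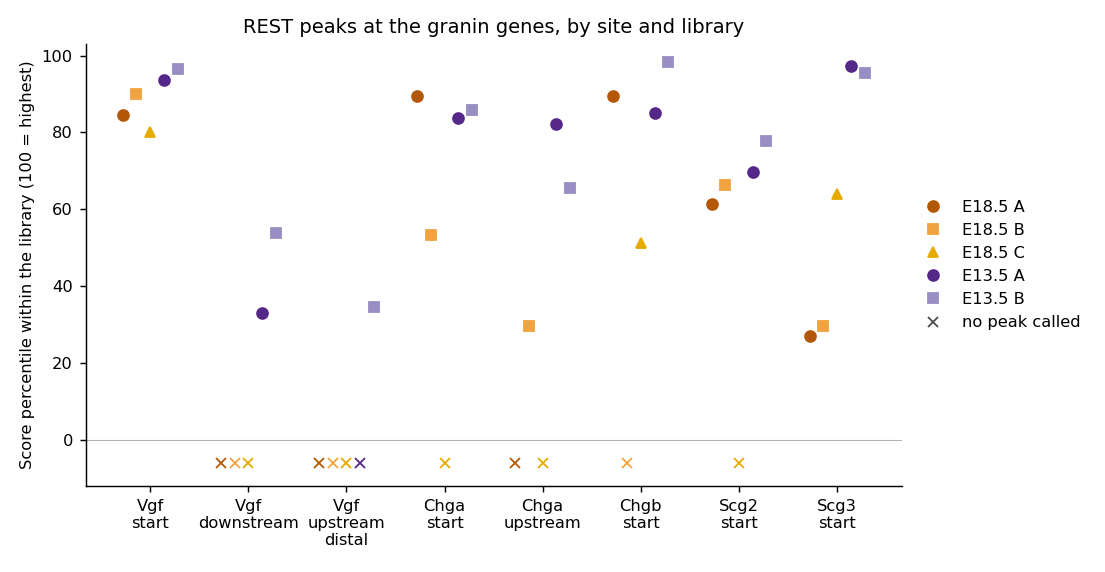
Score percentile of each granin peak within its library (vertical axis, 100 = highest score) for the 8 sites, with E18.5 libraries left of E13.5 libraries at each site. Crosses below 0 mark libraries in which no peak was called; the Vgf and Scg3 start sites are the ones called in all 5 libraries.

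Chga, the precursor of pancreastatin and vasostatin, spans chr12:103793179-103803237 on the + strand and had 7 peaks in 2 sites. The start site (chr12:103793142-103793720) covered the 5′ UTR and first coding bases and was centred 281.5 bp into the gene. Its element lies 279 bp past the start, in an annotated Chga intron. In E18.5 A and B the start peak was at percentile 89.4 (score 13, place 54 from the top) and 53.4 (score 6, place 159), with no peak in C. In E13.5 A and B it was at percentile 83.8 (score 25, place 222) and 85.9 (score 32, place 181). The E13.5 libraries agree closely, whereas the E18.5 libraries spread from above both of them to no call.

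The second Chga site (chr12:103788658-103789095) is intergenic, centred upstream at -4275 bp from the start. It was called in E18.5 B alone at that stage, at percentile 29.5 (score 5), against percentiles 82.1 (score 24) and 65.4 (score 22) in E13.5 A and B. The 2 Chga elements are 4544 bp apart and point the same way as the gene. They score close together on the matrix, 32.5 bits at the start and 31.3 bits upstream, higher than or level with the best match in 97.4% and 94.0% of E13.5 sites. The Chga start match was number 35 of the 3543 genomic matches past the matrix limit of 16.2 bits.

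Chgb, which encodes secretogranin I, spans chr2:132607014-132620815 on the + strand and had 1 site (chr2:132607284-132607884), centred 583.75 bp into the gene over UTR and coding exon. E18.5 A had it at percentile 89.4 (score 13, place 54) and E18.5 C at 51.3 (score 11, place 102), while E18.5 B had no call. E13.5 A had it at 85.1 (score 26, place 198) and E13.5 B at 98.2 (score 61, place 25). The E13.5 B value was the highest percentile of all 28 granin peaks. Chgb was the only granin gene with no peak in E18.5 B among the 5 that had any, and with Scg3 and Vgf one of the 3 called in E18.5 C. Its element is 526 bp past the start in a Chgb intron, on the strand of the gene, and scored 31.6 bits, number 66 of the 3543 genomic matches.

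Scg2, the precursor of secretoneurin, spans chr1:79431244-79436665 on the - strand. Its single site (chr1:79436364-79436867) was centred 68.9 bp into the gene and covered the 5′ UTR. Percentiles were 61.3 (score 7) and 66.3 (score 7) in E18.5 A and B with no call in C, against 69.7 (score 19) and 77.7 (score 27) in E13.5 A and B. Scg2 had the narrowest spread between libraries of the start sites called in 4 libraries, and its E13.5 percentiles were the lowest among the 5 start sites. Its element sits in the UTR 56 bp past the start, on the opposite strand.

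Scg3, which binds chromogranin A and cholesterol-rich granule membrane, spans chr9:75491071-75531803 on the - strand. Its site (chr9:75531484-75532053), centred 2 bp upstream of the start over UTR and coding bases, was called in all 5 libraries. Percentiles were 27.0 (score 5, place 325), 29.5 (score 5, place 233) and 63.9 (score 13, place 76) in E18.5 A, B and C, against 97.3 (score 42, place 38) and 95.5 (score 46, place 60) in E13.5 A and B. Every E18.5 library ranked it below both E13.5 libraries. The means were 40.1 ± 20.6 at E18.5 (SD, n = 3) and 96.4 ± 1.32 at E13.5 (n = 2), a difference of -56.3 percentile points (exact two-sided permutation p = 0.2, the smallest possible). Among the 113 sites called in all 5 libraries, 61.9% had every E18.5 percentile below both E13.5 percentiles, so that order by itself does not set Scg3 apart.

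Vgf, whose product is cut into peptides that act on neurons and metabolism, spans chr5:137506165-137509221 on the + strand and had 8 peaks in 3 sites. The start site (chr5:137505884-137506452), centred at -20.7 bp from the start, just upstream, was called in every library. Percentiles were 84.6 (score 11), 90.0 (score 13) and 80.1 (score 19) in E18.5 A, B and C, against 93.6 (score 33) and 96.4 (score 50) in E13.5 A and B. It was the granin site with the highest mean E18.5 percentile, and no library placed it below 80.1. The means were 84.9 ± 4.99 at E18.5 (SD, n = 3) and 95.02 ± 2.00 at E13.5 (n = 2), a difference of -10.1 points (exact two-sided permutation p = 0.2).

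Percentiles in lists of such different length are not on the same footing, so Scg3 and Vgf were also ranked among the 113 sites shared by all libraries. There Scg3 was at 4.87, 9.29 and 42.5 in E18.5 A, B and C, against 70.8 and 54.9 in E13.5 A and B (difference -44.0, exact two-sided permutation p = 0.2), and the groups still did not overlap. The share of the 113 sites with that order was then 23.9%. Vgf was at 54.4, 70.8 and 63.7 in E18.5 A, B and C, against 46.0 and 63.7 in E13.5 A and B. Its difference turned positive (8.11, exact permutation p = 0.6) and the groups overlapped. This ranking was chosen after the data were seen. When only the 226 top-scoring peaks of each library were ranked, Scg3 remained in E18.5 C and both E13.5 libraries, and the difference was -14.4. The E18.5 value there is 1 library, since E18.5 A and B had Scg3 below that limit, so no p-value is given.

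**Figure D2:**
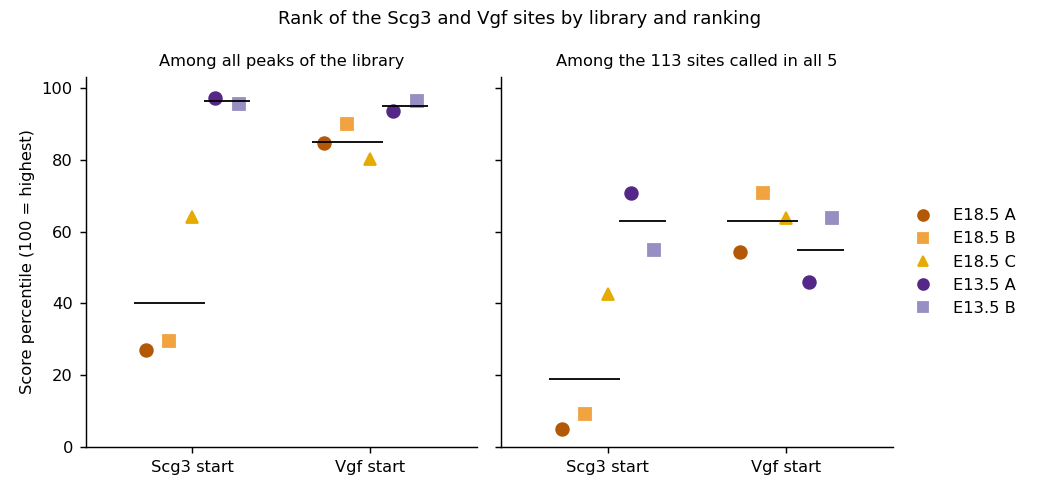
Percentile of the Scg3 and Vgf start sites in each library among all peaks of that library (left panel) and among the 113 sites called in all 5 libraries (right panel), with E18.5 left of E13.5 and horizontal lines at stage means. Scg3 has the lower E18.5 values under both rankings, while the Vgf stages overlap in the right panel.

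The other Vgf sites were weak or rare. A downstream site (chr5:137506846-137507369), centred 942 bp into the gene over UTR and coding sequence, had no E18.5 call and stood at percentiles 33.1 (score 11) and 53.8 (score 18) in E13.5 A and B. A distal site (chr5:137460664-137461078), upstream at -45294 bp from the start, was called only in E13.5 B, at percentile 34.5 (score 14). It lies in coding sequence of Znhit1 and is closer to the start of Plod3, so the 50 kb rule and not proximity gives it to Vgf. The element of the start site lies 11 bp before the Vgf start on the opposite strand and scored 25.2 bits, above or level with 52.3% of E13.5 sites. The downstream and distal elements scored 20.4 and 22.5 bits, above or level with 33.6% and 39.6% of sites, and the first of these is the only granin element with a mismatch in both cores. The start and downstream elements are 914 bp apart.

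Scg5, also called 7B2, the chaperone of prohormone convertase Pcsk2, spans chr2:113616519-113669278 on the - strand. No peak of any library fell in its 52.8 kb or within 50 kb of its start. Its best matrix match scored 9.53 bits, under the limit of 16.2, 44719 bp into the gene in an intron, with 8 mismatches to the consensus. The Scg5 region held 1 pair of cores with at most 1 mismatch, with a spacer of 13 bases, and no pair with exact cores.

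**Figure D3:**
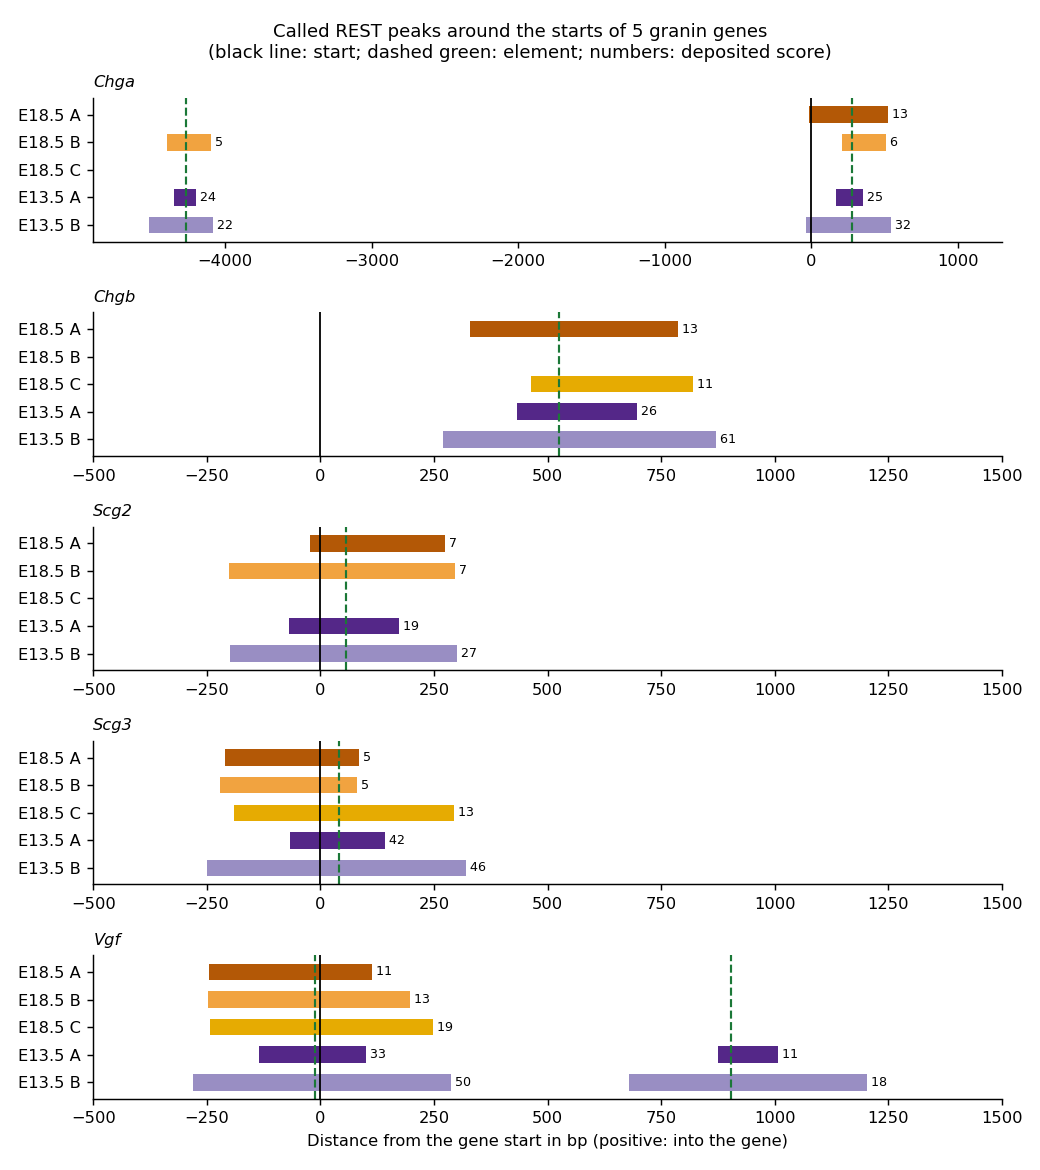
Called peaks (bars) around the starts of the 5 granin genes with a site, on a horizontal axis of distance from the gene start in bp, positive into the gene, with E18.5 libraries above E13.5 libraries. Numbers are deposited scores, the black line marks the start and the dashed green line the element, which lies inside every bar; the distal Vgf site at -45294 bp is outside the range drawn.

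Granin peaks were 296 to 536 bp long in the E18.5 libraries, against 132 to 264 bp in E13.5 A and 415 to 601 bp in E13.5 B. The element lay inside all 28 of 28 granin peaks. Its median distance from the peak centre was 25.75 bp and the largest 116 bp. Each element was picked in a 500-bp window centred on its site, which by itself keeps it near the peak centres. Neither value was set against all sites. By library the median was 55.5, 17 and 14 bp in E18.5 A, B and C, against 10.5 and 29.5 bp in E13.5 A and B. Relative to the peak centre, positive into the gene, the Scg3 element was at 102.5 and 111 bp in E18.5 A and B and at -11.5 bp in E18.5 C, against 2.5 and 5.5 bp in E13.5 A and B. The off-centre E18.5 A and B peaks were also the lowest ranked of the 5.

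A matrix match past 16.2 bits, a level that 1 in 1000 windows of 500 bp away from sites passes, was found at 5 of the 7 granin sites shared by E13.5 A and B. The background was 71.9% of such sites in the series, those that trained the matrix included. The limit was set on the 18338 windows away from sites, so the 0.0982% of them that passed it is fixed by that choice. Across the whole search regions of the 6 genes, matches past the limit numbered 2 at Chga, 1 at Chgb and 3 at Vgf, and each of them was in a called site. Scg2, Scg3 and Scg5 had none. By comparison, 31.2% of the 3543 matches in the genome were in a site of any library and 26.4% in a site of both E13.5 libraries, and the second share was 81.5% in the highest of 5 equal groups by matrix score. The Chga and Chgb elements are in that group.

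The Scg2 and Scg3 elements were found by a search for CAGCACC and GGACAGC in this order with a spacer of 0 to 30 bases and at most 1 mismatch in the 14 core bases, on both strands, added after the matrix had left these sites without a match. The best matrix scores there were -15.5 bits at Scg2 and -8.64 bits at Scg3. In the regions of the 6 genes, 9 of 22 such pairs were in a called site, and all 4 pairs with exact cores (1 each at Chga, Chgb, Scg2 and Scg3) were. The 9 include a Vgf pair with a spacer of 28 bases that shares a core with the Vgf start element. They also include a pair with a spacer of 23 bases in the Chgb site. The share of pairs with a mismatch was not counted over the genome. In the series, 66.8% of 1183 sites of both E13.5 libraries held such a pair, against 1.04% of windows away from sites. The best pair had a spacer other than 2 bases in 16.0% of the sites and 0.992% of the windows away from them. Among the 333 sites without a matrix match, 51.7% held a pair.

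Spacer length was far from even. Each site was counted once, by its pair with the fewest mismatches, and ties went to the spacer nearest 2 bases. Of the sites of both E13.5 libraries, 9 had a best pair with no spacer, as Scg2 has, and 57 one with the 8-base spacer of Scg3. The best pair had the canonical 2 bases in 601 and 3 bases in 0. Spacers of 7, 9 and 10 bases were those of the best pair in 24, 34 and 15 sites. Of exact core pairs anywhere in the genome, 3 of 10 (30%) with no spacer and 35 of 76 (46.1%) with 8 bases were in a site of both E13.5 libraries. The value was 220 of 290 (75.9%) for 2 bases and 0 of 26 for 3 bases. A sequence match is a description and was not tested as a binding site.

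**Figure D4:**
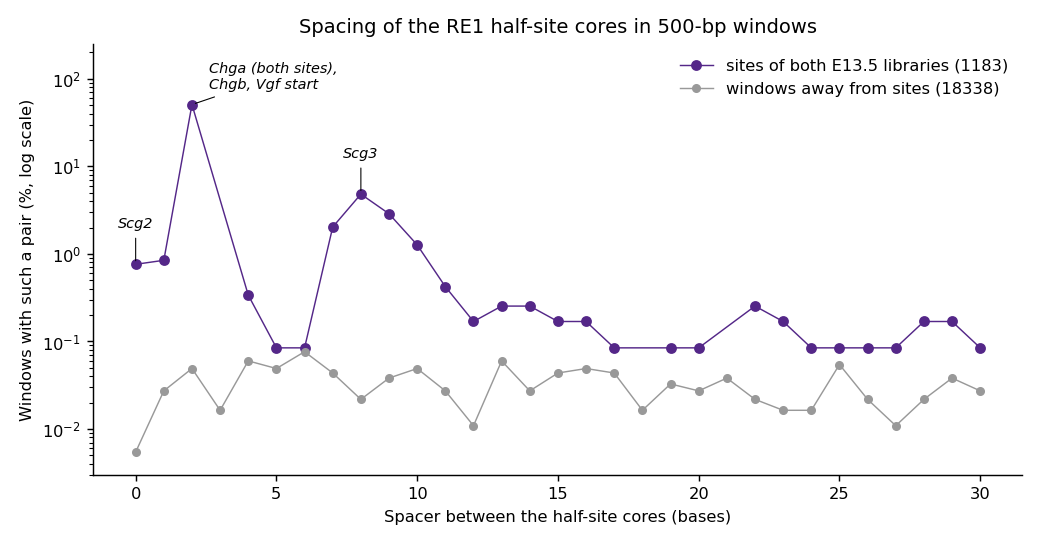
Percentage of 500-bp windows (logarithmic vertical axis) that hold both RE1 cores with at most 1 mismatch, by spacer length in bases, for 1183 sites of both E13.5 libraries (purple) and 18338 windows away from sites (grey). Each window is counted once, at the spacer of its best pair. Spacers found in no window are not drawn, and the Scg2 and Scg3 elements fall at 0 bases, next to the canonical 2 bases, and at the top of a separate group around 8 bases.

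Of the 7 granin sites shared by E13.5 A and B, 6 were called again at E18.5, in 1 library or more, where 40.5% of all 1186 such sites were. The exception was the downstream Vgf site. Over all sites this share was higher at higher E13.5 rank, at 8.97%, 13.8%, 34.3%, 54.7% and 90% in 5 equal groups of mean E13.5 percentile, lowest group first. The granin sites stood mostly at the high end of that ranking, 4 of 4 called again in the highest group, 2 of 2 in the next, and 0 of 1 in the second lowest. Their retention was therefore read beside these shares and not beside 40.5% alone.

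A list of 16 genes, chosen as partners of the dense-core granule with earlier results of these data known, was followed by the same rule. The counts below describe this chosen list and were not tested. Of these, 2 had a site in at least 2 E18.5 libraries, where 2.2% of all protein-coding genes did, and 7 had one in both E13.5 libraries, where 6.9% did, while 8 had no site, and Hid1, a factor in granule biogenesis, had a site in E13.5 B only. The 7 were the prohormone convertases Pcsk1 and Pcsk2, the granule membrane proteins Ptprn and Ptprn2, the priming factor Cadps, the monoamine transporter Slc18a1 and the calcium-binding protein Scgn. The 8 without a site were Pcsk1n, Gnas, Cpe, Pam, Cadps2, Slc30a8, Slc18a2 and Ica1. Carboxypeptidase E (Cpe) and the amidating enzyme Pam, like Scg5, thus had no called peak. The Slc18a1 site is nearer the start of Atp6v1b2, a proton pump subunit, and 1 of the Ptprn sites is nearer that of Resp18.

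Ptprn2 had the highest E13.5 percentiles of the list. Its site (chr12:117723949-117724536), centred 15.7 bp into the gene, was at percentiles 27.0, 95.4 and 86.1 in E18.5 A, B and C, against 96.7 and 96.0 in E13.5 A and B. E18.5 A placed it low and the other 4 libraries high. Scgn, called in E18.5 A and B, was at 70.2 and 66.3, against 80.0 and 85.9 in E13.5 A and B. Pcsk1 was weaker, at 29.5 in E18.5 B alone, against 9.18 and 60.3 in E13.5 A and B. Ptprn2 and Pcsk1 are shown because neither has a matrix match and both hold exact cores at another spacing, Ptprn2 with none, as at Scg2, and Pcsk1 with 7 bases:
Ptprn2 (chr12:117724196-117724214, - strand): ttCAGCACCGGACAGCgcc
Pcsk1 (chr13:75226223-75226248, - strand): ttCAGCACCgatgtgtGGACAGCgat

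The genes whose pattern over the 5 libraries was nearest the mean of the 5 bound granin genes were Stra6, Cnga3, Maneal, Cacna1b and Cerkl. Likeness was the mean absolute difference in best percentile within 5 kb of the start (0 where no peak), over 452 genes, and these 5 differed from the granin mean by 8.0, 11.1, 11.2, 11.4 and 11.4 points. The granin mean itself was 70.3, 47.8 and 39.1 in E18.5 A, B and C, against 85.9 and 90.7 in E13.5 A and B. Chga, the granin nearest that mean, differed from it by 14.1 points and Vgf, the farthest of the 5, by 22.2.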

How the data were processed

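REST ChIP-seq peak lists of wild-type mouse embryonic pancreas were used, 3 libraries at E18.5 and 2 at E13.5, grouped by the labels. Per the study's methods, written for E13.5, and the submitters' processing notes, the authors aligned single-end 50-bp reads with Bowtie2 2.2.5 (1 mismatch, mapping quality of at least 10) and called peaks with MACS2 2.1.0. SAMtools is also named. The authors deposited 1 list per library, labelled with a false discovery rate of 10%, with a whole-number score per peak whose unit is not given. The paper's own E13.5 peak set was called on pooled replicates against input DNA at a stricter false discovery rate. The lists used here are therefore not that set. Lists made with other settings would hold other weak peaks.

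The notes name NCBI36 and mm9, and peak ends fitted mm9 chromosomes. Overlapping entries of a library (4, 2 and 3 in E18.5 A, B and C; 7 and 2 in E13.5 A and B) were merged. Scores were turned into percentiles, with ties at their mean rank. Peaks overlapping by at least 1 bp formed sites. Genes came from the GENCODE mouse annotation of that build. The RE1 matrix used 765 windows of 500 bp and 426 elements, with a pseudocount of 0.5 per base. All 6 genes, every site of theirs, 16 partner genes (Hid1 was matched through its synonym C630004H02Rik) and the 5 nearest genes by likeness were named. Members and lists were chosen with earlier results of these data known. Stages were compared by exact two-sided permutation over libraries (10 splits), and p-values measure only the spread between libraries. Alternatives varied the gene window, score limit, overlap, element limit and libraries. Python 3.11.15, numpy 2.4.6, scipy 1.17.1 and pysam 0.24.0 were used, and the element search was tested on simulated data.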

Additional observations from a re-analysis of the deposited data

How the results depend on the processing

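Under the alternatives, 73 values kept their direction, some with a changed size, 3 counts moved and 2 differences reversed. Some of the 73 left out libraries that the count does not use, such as an E18.5 library for genes with a site in both E13.5 libraries. Granin genes with a site in at least 2 E18.5 libraries ranged between 2 and 5 when a library was left out, 2 without E18.5 A, 3 without E18.5 B and 4 without E18.5 C, because 2 E18.5 libraries were then left and both had to hold the site. With only the 226 top-scoring peaks of each library, 3 of 4 granin sites had an RE1 match, since fewer sites remained. The Vgf start difference reversed to 8.11 points when ranked among the sites called in all 5 libraries and to 5.24 when ranked among the top-scoring peaks. The per-library difference lay between -1.5 and -0.5 genes and between -3.67 and -2.5 peaks when a library was left out. With only the 226 top-scoring peaks it was -0.67 genes and -0.67 peaks (exact permutation p = 0.6 for each), and with peaks above percentile 50 of their library -1.67 genes (p = 0.2). Libraries of both stages share letters but come from different embryos. A replicate block on the letters A and B, with E18.5 C left out, gave -0.5 genes, -2.5 peaks, -68.1 points at Scg3 and -7.72 at Vgf, with no change of direction. Depth is unknown, so weak binding cannot be told apart from none, and 3 against 2 libraries allow no p under 0.2.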

Other observations

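Sites with cores in direct contact, the arrangement at Scg2 and Ptprn2, were few, and their median rank was high. The 9 sites of both E13.5 libraries with no spacer and no RE1 match, Scg2 and Ptprn2 among them, had a median E13.5 percentile of 89.4, and 7 of them (77.8%) were called again at E18.5. For the 850 sites with a canonical match these values were 56.4 and 40.2%. They were 78.2 and 72.2% for the 18 sites with a spacer of 0 or 1 base, which include those 9, and 60.6 and 50% for the 130 sites with 7 to 11 bases. Scg2 itself had a mean E13.5 percentile of 73.7. The 55 sites with the 8-base spacer of Scg3 were close to the canonical ones, with a median percentile of 54.3 and 23 (41.8%) called at E18.5, and the 161 sites with neither kind of element had a median of 43.2 and 30.4%. Because calls at E18.5 go with E13.5 rank over all sites, the part of the spacer in these shares was not tested. The differences in rank were not tested either. The class without a spacer is small, and the pair search was added only after Scg2 and Scg3 had no matrix match. The Hid1 region, called in E13.5 B alone at percentile 68.0, also held a core pair with an 8-base spacer, in an intron of Otop3.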
